A study of Mus musculus with 12 samples.

Results

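The response of wild-type (WT) regulatory T cells (Treg) to stimulation in culture was read from 4 of the 12 libraries of the series, 2 from unstimulated and 2 from stimulated cells. Genes entered the comparison when their mean over the 8 libraries from cultured cells was at least 1 FPKM (sequenced fragments of a gene, scaled to its length and to the number of fragments mapped in the library), which 10710 of the 24421 genes in the table reached. All groups came from mouse spleen and lymph nodes, and polyadenylated RNA was sequenced. The WT groups are labelled with no other allele or agent. The other 4 libraries, from cells with a conditional knockout (cKO) of Kdm2b, 2 unstimulated and 2 stimulated, were fitted together with them so that all groups shared 1 estimate of the spread. The stimulus, its dose and duration, the way the cells were purified, the strain and age of the mice, and the Cre line behind the knockout are not given in the sources used here. Whether the 2 replicates of a group were separate animals, separate cultures or repeats of 1 preparation is not stated, nor is a batch, so every p-value below is set against the spread of these samples alone, which may be technical. In bulk RNA a lower value can come from fewer cells of a type or from less RNA per cell, and these cannot be told apart.

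Treg are CD4 T cells that express the transcription factor Foxp3 and hold other immune cells in check. They make little interleukin 2 (IL-2) themselves and depend on IL-2 from other cells, which they bind through a receptor with the alpha chain Il2ra (CD25) and which signals through the kinases Jak1 and Jak3 to the transcription factor STAT5. Engagement of the T cell receptor (TCR), usually together with co-stimulation, moves resting T cells out of quiescence: genes that keep cells small and recirculating go down, and genes for growth, biosynthesis and cytokines go up.

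The 8 Treg markers examined (Foxp3, Il2ra, Ctla4, Ikzf2, Tnfrsf18, Ikzf4, Lrrc32 and Nrp1) were above 17 FPKM in each of the 4 WT libraries, and the T cell genes Cd3e, Cd3d, Cd3g, Cd4 and Lck were above 73 FPKM. The columns summed to between 369720 and 431812 FPKM. Genes listed at 0 numbered 9564 and 9719 in the libraries numbered replicate 1, unstimulated and stimulated, and 12379 and 13273 in those numbered replicate 2. The depth behind the values is unknown. Levels below are given as FPKM in the order unstimulated replicate 1 and 2, then stimulated replicate 1 and 2. Fold changes are differences of log2(FPKM + 1), stimulated minus unstimulated, with their standard error (SE), and adjusted p-values are limma's with Benjamini-Hochberg adjustment over the 10710 genes.

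Markers of other cells were summed in each library. The 20 B cell markers in the table summed to 412 and 621 FPKM in the unstimulated and 645 and 519 FPKM in the stimulated libraries. Of the 19 tested, 0 were called (2 at an unadjusted p under 0.05). The 17 myeloid markers in the table summed to 234 and 278 against 181 and 200 FPKM. The 12 CD8 T and NK cell markers summed to 68.7 and 140 against 69.2 and 100 FPKM. Of these lists 14 and 6 genes were tested, with 0 calls in either (1 and 0 at an unadjusted p under 0.05). Of the 12 CD8 T and NK cell markers in the table, 6 were listed at 0 in unstimulated and 9 in stimulated replicate 2, against 1 in each replicate 1 library. Erythroid genes differed both between libraries of a group and between groups: their sum was 35 and 1286 FPKM unstimulated and 310 and 2046 FPKM stimulated, the replicate 2 library being the higher in each group. The globin Hbb-bs was the 1 marker of these 4 lists that was called, and its values, 0 and 0 against 85.3 and 564 FPKM, stand here as a difference between libraries of which 2 are listed at 0. In the 4 cKO libraries from culture it stood between 1699 and 16956 FPKM. The part of other cells in the results was not tested beyond these values.

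Stimulation called 260 of the 10710 genes, 2.43% of those tested, at an adjusted p under 0.05. Of these, 172 (1.61%) were higher and 88 (0.822%) lower in the stimulated libraries, and 144 and 66 of them moved by at least 1 on the log2 scale. In all 260 both stimulated values lay beyond both unstimulated values, which was also the case for 18.8% of all tested genes upward and 22.9% downward. Across all tested genes the median log2 fold change was -0.04. Rescaling the columns to a common sum moved that median to 0.06 and gave 218 higher and 68 lower calls, 76.2% higher against 66.2% on the deposited scale. Changes below are on the deposited scale. Of the genes named below, those called were in the lists, among the largest changes, or are said to be picked otherwise; those that did not pass were mostly picked for their role after their values were seen, as were Iltifb, Tubb2b and Lilr4b as neighbours of named genes.

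**Figure D1:**
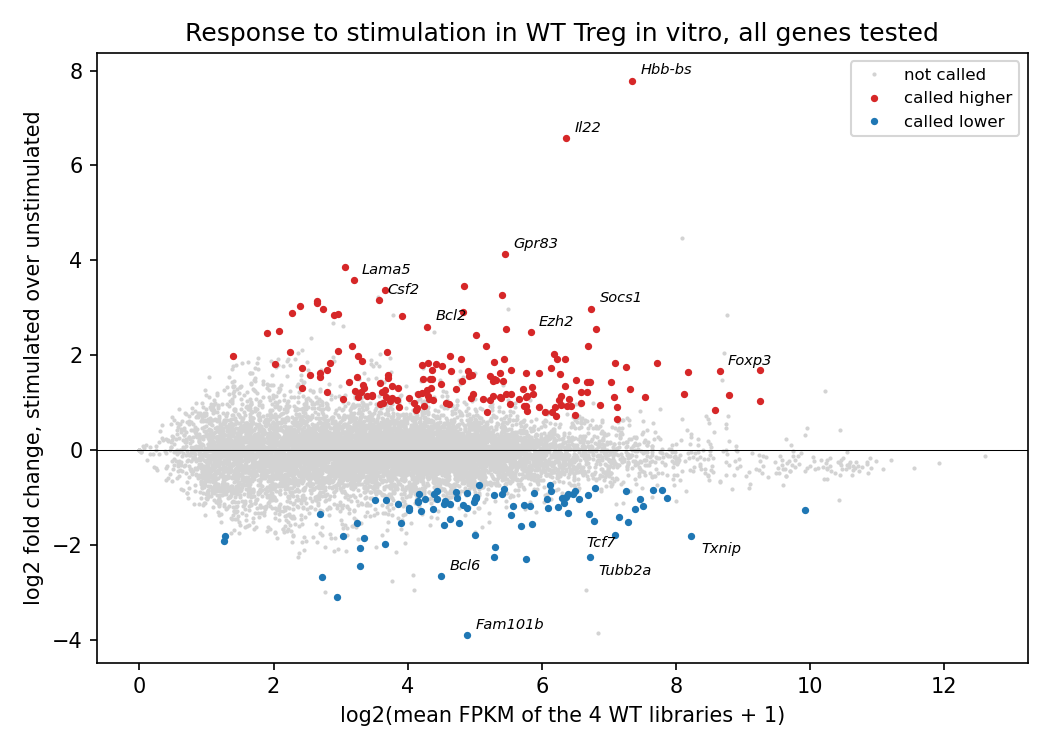
Log2 fold change (stimulated over unstimulated WT Treg, y axis) against log2 of the mean FPKM of the 4 WT libraries plus 1 (x axis) for the 10710 genes tested. Red points are the 172 genes called higher and blue points the 88 called lower. Hbb-bs, a globin listed at 0 in both unstimulated libraries, and Il22 stand above all other called genes, followed by Gpr83, and Fam101b is the lowest called gene.

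How many genes were called varied with which libraries were fitted. Fitting the 4 WT libraries alone left 18 calls (15 higher, 3 lower), and leaving out 1 WT library gave 166 (unstimulated replicate 1), 240 (unstimulated replicate 2), 966 (stimulated replicate 1) or 94 (stimulated replicate 2). Without a cKO library, the count was 136 (unstimulated replicate 1 or 2), 121 (stimulated replicate 1) or 119 (stimulated replicate 2). The 260 genes kept their sign in each of the 20 alternatives in which they were tested. Most alternatives could not have turned a sign, because the WT groups of these genes did not overlap. Only the changes of scaling could have done so. Each fit without 1 WT library called the same 64 of the 260. The 16 genes called under all 20 alternatives were Il22, Csf2, Lta, Socs1, Bcl2, Gpr83, Ezh2, Lama5, Ecm1, Adam19, Aldh18a1, Kpna1 and Atp11b among the rises and Bcl6, Fam101b and Arl5c among the falls.

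The largest fold change of a called gene detected in all 4 libraries belonged to a cytokine. Il22 (chromosome 10, 118204584 to 118210047, GRCm38), which encodes a cytokine that acts on epithelial cells, stood at 0.541 and 0.822 FPKM without stimulation and at 196 and 129 FPKM with it. It was barely detected in either resting library and was among the well-expressed genes in both stimulated ones, a difference of 6.58 on the log2 scale (SE 0.42, adjusted p = 0.000885). Its neighbouring copy Iltifb was listed at 0 in both unstimulated libraries and at 20.9 and 8.71 FPKM in the stimulated ones; reads of the 2 copies can be shared, so how they divide is uncertain. Csf2 (chromosome 11, 54247270 to 54249899), the growth factor GM-CSF, went from 1.15 and 1.64 to 22.0 and 18.7 FPKM, up by 3.16 on the log2 scale (SE 0.22, adjusted p = 0.000978). Lta, the TNF family ligand lymphotoxin alpha, rose from 7.48 and 10.9 to 55.5 and 51.2 FPKM. In all 3 genes the replicates of a group lay close together compared with the gap between groups.

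Of the 22 cytokine genes tested, 5 (22.7%) were called higher and 0 lower, and the median log2 fold change of the list was 0.88. The filter averaged over stimulated libraries too, so genes near 0 without stimulation could enter through their stimulated values. This favours rises in such a list. Il3, Il9, Il21 and Il24 fell below the filter. Of the 26 members in the table, 0 were listed at 0 in stimulated replicate 1 and 7 in stimulated replicate 2. Il5, a type 2 cytokine that supports eosinophils, rose from 1.20 and 1.77 to 7.13 and 7.30 FPKM (adjusted p = 0.0243). Osm, oncostatin M of the IL-6 family, rose from 3.69 and 4.01 to 11.4 and 14.8 FPKM (adjusted p = 0.0224). The type 2 cytokines Il4 and Il13 and the IL-6 family member Lif had log2 fold changes of 2.11, 2.04 and 1.89 that did not pass, with adjusted p between 0.0541 for Lif and 0.0812 for Il4. Their groups did not overlap, but the stimulated values of Il4 were far apart, at 11.2 and 4.37 FPKM.

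Tgfb1, Il10 and Ebi3, which encode cytokines tied to suppression, did not pass the test. Tgfb1 stood at 249 and 277 against 222 and 256 FPKM, with overlapping groups (adjusted p = 0.621). Il10 stood at 43.5 and 55.4 FPKM without and at 35.4 and 33.4 FPKM with stimulation (log2 fold change -0.50, adjusted p = 0.322). Ebi3, a subunit of IL-35 and IL-27, was at 9.51 and 9.96 against 4.75 and 2.64 FPKM (-1.23, adjusted p = 0.0702). Il10 and Ebi3 were lower in each stimulated library. Calls of Il5 and Osm were lost without stimulated replicate 2 (adjusted p = 0.0986 and 0.105) and without unstimulated replicate 1 (0.0858 and 0.0739), that of Osm also without unstimulated replicate 2 (0.0578).

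**Figure D2:**
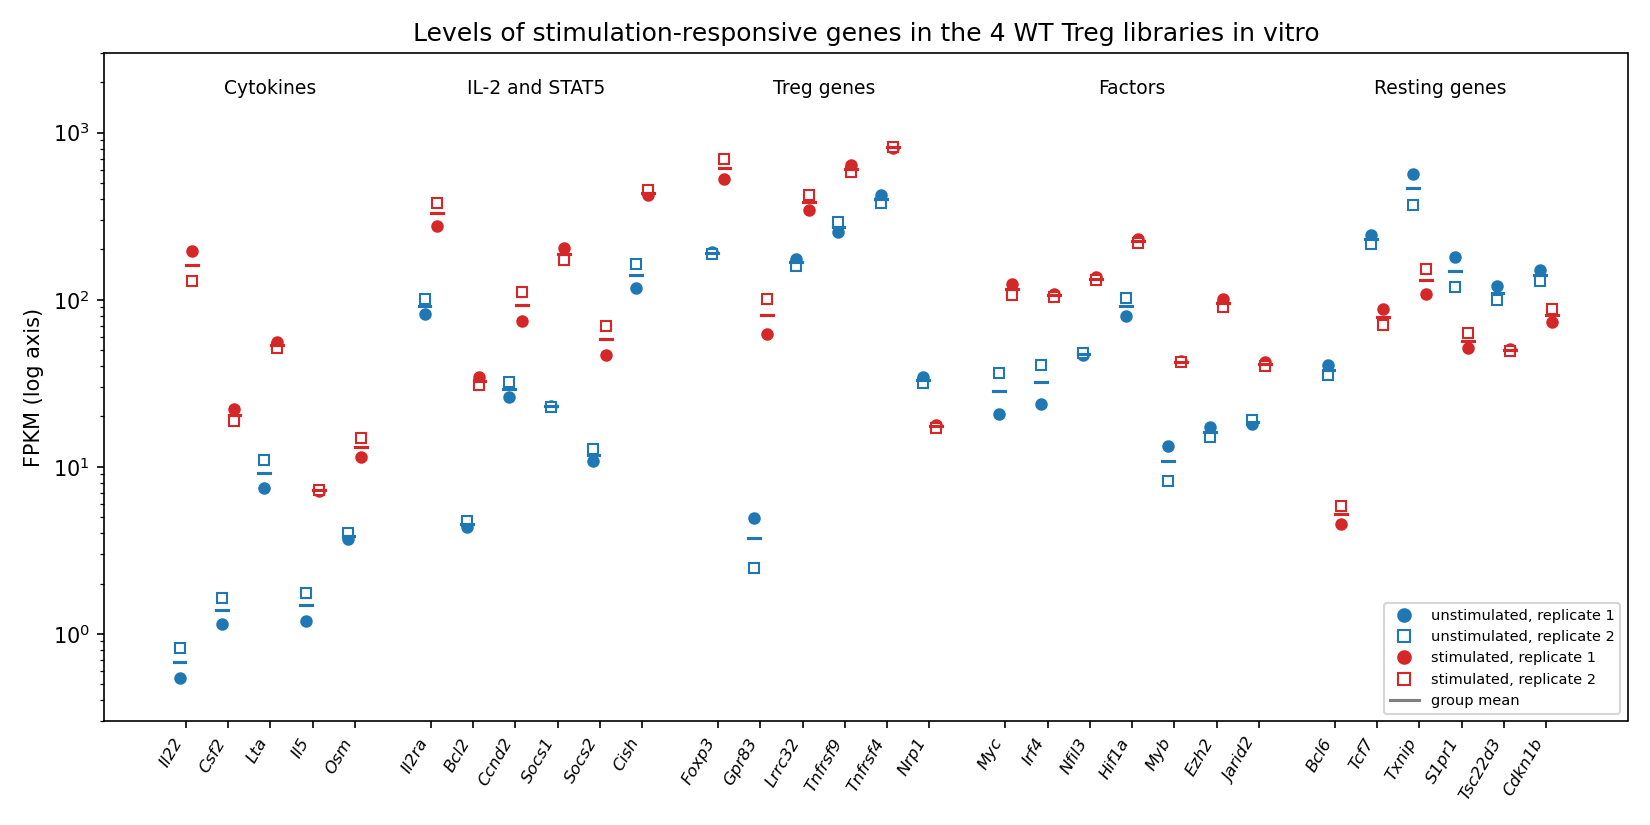
FPKM (log axis) of 30 genes in the 4 WT libraries, grouped by role. Blue marks unstimulated and red stimulated libraries, circles replicate 1 and squares replicate 2, and bars the mean of a group. Il22 separates the groups most widely, and Nrp1 in the Treg genes lies lower after stimulation while its neighbours lie higher.

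Calls in the IL-2 receptor pathway were of the receptor alpha chain and of target and feedback genes, while the kinases and STAT5 genes did not pass. Of 20 genes tested, 7 (35%) were called higher and 0 lower, 5 had a log2 fold change below 0, and the list median was 0.60; 1 of the 7 is Osm, given above. Il2ra (chromosome 2, 11642792 to 11693194) rose from 81.9 and 101 to 278 and 382 FPKM (log2 change 1.83, SE 0.19, adjusted p = 0.00447). The lowest stimulated value was above the highest unstimulated one by more than the spread within either group. Il2rb, the beta chain, stood at 326 and 334 against 484 and 606 FPKM and just missed the threshold (adjusted p = 0.0643).

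Of the suppressors of cytokine signalling in the list, which are induced by STAT factors and damp cytokine receptors, Socs1, Socs2 and Cish rose and Socs3, at 65.7 and 77.1 against 108 and 93.3 FPKM, did not pass (adjusted p = 0.189). Socs1 (chromosome 16, 10783808 to 10785536) was at 23.1 and 22.8 FPKM in unstimulated and at 204 and 174 FPKM in stimulated cells, up by 2.98 on the log2 scale (SE 0.16, adjusted p = 0.000885). Socs2 rose from 10.9 and 12.8 to 46.9 and 69.7 FPKM (adjusted p = 0.00289), and Cish from 117 and 164 to 421 and 456 FPKM (adjusted p = 0.00756). The 3 called genes separated the groups without overlap. Of the survival and division genes in the list, Bcl2 and Ccnd2 were called, and Pim1, Pim2 and Ccnd3 were not. The anti-apoptotic Bcl2 rose from 4.38 and 4.71 to 34.4 and 30.9 FPKM (log2 change 2.60, SE 0.15, adjusted p = 0.000885). The D-type cyclin Ccnd2 rose from 26.1 and 32.0 to 74.6 and 112 FPKM (adjusted p = 0.0133). The call of Ccnd2 was lost without stimulated replicate 2 (adjusted p = 0.0561) and without unstimulated replicate 1 (0.0647).

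Of 15 BCL2 family genes tested Bcl2 was the 1 that passed. In this family 4 genes had a log2 fold change above 0 and 11 below, the median was -0.36 and the lowest value -2.04. The survival genes Bcl2l1 and Mcl1, which are among those above 0, had values of 0.79 and 0.56 (adjusted p = 0.0612 and 0.0961).

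The promoter windows of Cish, Foxp3 and Tnfrsf9, genes that rose here and that T cell biology places downstream of cytokine and TCR signals, are shown because each holds the letters TTCNNNGAA, the spaced palindrome that STAT factors bind. Windows run from 250 bases before to 50 bases after the annotated transcript start and were taken from RefSeq (GRCm38.p6), 5′ to 3′ on the gene's own strand. Capitals mark matches to TTCNNNGAA, and in Tnfrsf9 also to TGACTCA, the AP-1 motif, each read on both strands (TTCNNNGAA reads the same on both); no match overlaps another.
Cish, chr9:107296409-107296708, plus strand: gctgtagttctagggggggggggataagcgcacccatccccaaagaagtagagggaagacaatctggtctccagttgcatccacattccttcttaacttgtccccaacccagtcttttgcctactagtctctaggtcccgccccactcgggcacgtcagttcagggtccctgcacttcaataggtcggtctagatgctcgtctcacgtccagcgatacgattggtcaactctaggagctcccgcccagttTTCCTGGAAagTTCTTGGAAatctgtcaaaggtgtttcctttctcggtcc
Foxp3, chrX:7580233-7580532, plus strand: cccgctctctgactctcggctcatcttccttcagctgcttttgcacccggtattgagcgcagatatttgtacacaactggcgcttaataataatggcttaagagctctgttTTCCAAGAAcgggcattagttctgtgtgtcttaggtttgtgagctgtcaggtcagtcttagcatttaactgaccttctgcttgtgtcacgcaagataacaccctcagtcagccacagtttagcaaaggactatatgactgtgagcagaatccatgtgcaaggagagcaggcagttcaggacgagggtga
Tnfrsf9, chr4:150927749-150928048, plus strand: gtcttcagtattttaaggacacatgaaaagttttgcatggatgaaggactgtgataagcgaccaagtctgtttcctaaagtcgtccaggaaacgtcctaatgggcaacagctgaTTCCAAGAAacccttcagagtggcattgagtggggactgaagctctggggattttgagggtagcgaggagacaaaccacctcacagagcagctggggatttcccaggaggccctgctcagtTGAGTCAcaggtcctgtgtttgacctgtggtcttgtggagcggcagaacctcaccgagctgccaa
In Cish the matches begin at the start itself and 11 bases after it, in Foxp3 the match begins 139 bases before the start, and in Tnfrsf9 the STAT and AP-1 matches begin 136 and 15 bases before it. Among all 32851 RefSeq windows of this length, 8.30% hold the STAT letters and 5.20% the AP-1 letters. The windows were picked for holding a match, and any window of these genes without a match was left out. The Foxp3 window lies wholly inside the span given for the gene below. Its annotated start is therefore not the first base of that span. Of the 7 called members of the IL-2 list, 4 had a window in the table, and 1 of these, Cish, held the STAT letters. A comparison of the shares between called and other genes is void, because 132 of the 172 genes called higher (76.7%) and 63 of the 88 called lower (71.6%) had a window, under the 80% set as the minimum. A match describes letters and does not show binding.

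Foxp3, Gpr83 and Lrrc32 were among the Treg genes that rose with stimulation. Foxp3 (chromosome X, 7579676 to 7595243), the factor that defines the lineage, was at 194 and 189 FPKM in unstimulated and at 529 and 696 FPKM in stimulated libraries, up by 1.66 on the log2 scale (SE 0.17, adjusted p = 0.00439). Both stimulated values lay far above both unstimulated ones, which differed by little. Gpr83 (chromosome 9, 14859880 to 14870789), a G protein-coupled receptor enriched in Treg, went from 4.96 and 2.49 to 62.4 and 101 FPKM, the steepest rise of the Treg signature (log2 fold change 4.14, SE 0.34, adjusted p = 0.00187). Lrrc32, which encodes GARP, the protein that holds latent TGF-beta on the Treg surface, rose from 176 and 160 to 343 and 426 FPKM (adjusted p = 0.0253).

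Of 27 signature genes tested, 8 were called higher and 1 lower (33.3% called), with a median log2 fold change of 0.54. The co-stimulatory receptor genes of the TNF receptor family Tnfrsf9 (4-1BB) and Tnfrsf4 (OX40) rose from already high levels, Tnfrsf9 from 255 and 293 to 637 and 580 FPKM and Tnfrsf4 from 426 and 378 to 808 and 825 FPKM. Swap70 rose by 0.93 on the log2 scale (adjusted p = 0.0391). The fall was that of Nrp1, neuropilin 1, a surface protein used to mark thymus-derived Treg, from 34.4 and 31.9 to 17.7 and 17.2 FPKM (log2 change -0.89, SE 0.17, adjusted p = 0.0390). Its replicates almost coincided within each group. Ctla4, an inhibitory receptor central to suppression, stood at 422 and 507 against 516 and 467 FPKM, and the factor Ikzf2 (Helios) at 38.9 and 68.3 against 57.2 and 72.9 FPKM. The groups overlapped in both genes, and neither passed (adjusted p = 0.798 and 0.528). Ikzf4 and Tnfrsf18 (GITR) were higher in both stimulated libraries, with log2 fold changes of 0.95 and 0.56, and did not pass (adjusted p = 0.0543 and 0.132).

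Leaving out 1 library ended some of these calls. Without stimulated replicate 2 the adjusted p was 0.144 for Lrrc32, 0.110 for Tnfrsf4, 0.175 for Swap70 and 0.146 for Nrp1. Without an unstimulated library it was 0.0564 for Tnfrsf4 (replicate 2), 0.0883 for Swap70 (replicate 1), 0.0727 and 0.0814 for Lrrc32 and 0.104 and 0.0684 for Nrp1 (replicates 1 and 2).

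Of the molecules by which Treg suppress other cells, few passed. Of 19 genes tested, Lrrc32 was called higher and Pdcd1 lower (10.5% called), and the list median was 0.09, near that of all genes. Pdcd1, the inhibitory receptor PD-1, fell from 113 and 106 to 57.3 and 57.2 FPKM (log2 change -0.92, SE 0.15, adjusted p = 0.0231), with no overlap between the groups. Entpd1 (CD39, which degrades extracellular ATP) and Icos, a co-stimulatory receptor, were higher in both stimulated libraries by 0.91 and 0.86 on the log2 scale and did not pass (adjusted p = 0.119 and 0.146).

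Among 23 co-stimulatory and inhibitory receptors, 1 gene besides Pdcd1 passed: Cd200, whose product restrains myeloid cells through their CD200 receptor, rose from 13.8 and 12.9 to 47.6 and 41.0 FPKM (log2 fold change 1.66, adjusted p = 0.00322). Of 24 TNF family ligands and receptors, 4 (16.7%) rose and 0 fell. Beside Lta, Tnfrsf9 and Tnfrsf4 these included Tnfrsf8 (CD30), from 2.60 and 1.69 to 9.98 and 17.6 FPKM (adjusted p = 0.0178), while the death receptor Fas, at 17.4 and 28.1 against 44.4 and 78.3 FPKM, did not pass (adjusted p = 0.0638). Calls were lost without stimulated replicate 2 for Pdcd1 and Tnfrsf8 (adjusted p = 0.104 and 0.0788), without unstimulated replicate 2 for both (0.0554 and 0.0643), and without unstimulated replicate 1 for Pdcd1 (0.0777).

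Of 25 early TCR signalling genes tested, 3 (12.0%) were called higher and 0 lower, yet 18 of the 25 had a log2 fold change below 0 and the list median was -0.23. The calls included Rasgrp1, which activates Ras downstream of the TCR, from 29.2 and 33.9 to 68.8 and 95.1 FPKM (log2 fold change 1.33, adjusted p = 0.0120), and the adaptor Lcp2 (SLP-76), from 53.0 and 44.4 to 90.5 and 114 FPKM (1.05, adjusted p = 0.0178). In both genes the stimulated values lay above the unstimulated ones. The CD3 chains Cd3e, Cd3g and Cd3d had log2 fold changes of -0.51, -0.48 and -0.47, and the negative regulators Cd5, Dgka and Dgkz of -0.81, -0.73 and -0.57, with adjusted p between 0.0558 for Dgkz and 0.377 for Cd3g. In Cd5, Dgka and Dgkz both stimulated values were below both unstimulated ones.

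Both calls were lost without stimulated replicate 2 (adjusted p = 0.0514 for Rasgrp1 and 0.0842 for Lcp2). That of Rasgrp1 was lost without unstimulated replicate 1 (0.0553) and that of Lcp2 without unstimulated replicate 2 (0.0564).

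Of the transcription factors that respond early to TCR signals, few passed. Of 35 immediate early, NFAT, AP-1 and NF-kB genes tested, 3 (8.57%) rose and 0 fell, with a list median of 0.26. Myc, which drives growth and biosynthesis, rose from 20.8 and 36.2 to 124 and 107 FPKM (log2 change 2.03, SE 0.30, adjusted p = 0.0167). Irf4, needed for effector differentiation of activated T cells, rose from 23.7 and 40.7 to 108 and 104 FPKM (1.74, adjusted p = 0.0109), and the AP-1 subunit Jun from 46.4 and 62.9 to 151 and 144 FPKM (1.43, adjusted p = 0.0140). In each gene both stimulated values were more than the highest unstimulated one.

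The zinc finger factors Egr1, Egr2 and Egr3, which are induced within minutes of TCR engagement, had log2 fold changes of 1.19, 0.84 and 0.95 with adjusted p between 0.190 for Egr2 and 0.264 for Egr1. The orphan receptor Nr4a3 had 0.62 (adjusted p = 0.113). Without stimulated replicate 2 the adjusted p was 0.0708 for Myc, 0.0561 for Irf4 and 0.0661 for Jun, and without unstimulated replicate 1 it was 0.0625 for Myc and 0.0543 for Jun.

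Of 25 T helper and effector transcription factors tested, 4 rose and 1 fell (20.0% called), with a median of 0.33. Nfil3, which represses and activates cytokine genes in several lymphocytes, rose from 46.7 and 47.8 to 136 and 131 FPKM (log2 change 1.48, SE 0.12, adjusted p = 0.00187), with the smallest spread of the 4. Hif1a, the oxygen-regulated factor of glycolytic genes, rose from 79.9 and 103 to 231 and 217 FPKM (1.30, adjusted p = 0.00913), Myb from 13.3 and 8.22 to 43.0 and 42.3 FPKM (1.92, adjusted p = 0.00624), and Irf4 is given above. The fall was Bcl6 (chromosome 16, 23965050 to 23988866), the repressor that programs follicular T cells, from 40.5 and 35.3 to 4.57 and 5.85 FPKM (log2 change -2.65, SE 0.19, adjusted p = 0.000978). It was the fall with the lowest adjusted p among the listed genes, and its groups were far apart.

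Polycomb genes were read in 2 complexes. Of 12 genes of PRC2, which places repressive methyl marks on histone H3, 2 rose: the catalytic subunit Ezh2 (chromosome 6, 47530274 to 47595270), from 17.4 and 15.1 to 102 and 90.1 FPKM (log2 change 2.49, SE 0.16, adjusted p = 0.000885), and the recruiting subunit Jarid2, from 18.1 and 19.1 to 42.2 and 40.1 FPKM (1.11, adjusted p = 0.00918). The core partners Suz12 and Eed had log2 fold changes of 0.40 and -0.18 (adjusted p = 0.285 and 0.567). Of the 10 genes of PRC1.1, the complex of which Kdm2b is a subunit, 0 passed in either direction (0 at an unadjusted p under 0.05), and at an adjusted p of 0.278 Kdm2b had a log2 fold change of -0.29. Whether the 2 complexes differ was not tested.

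Several genes known from resting and recirculating T cells fell. Of 29 tested, 7 (24.1%) were called lower and 0 higher, 22 had a log2 fold change below 0 and 7 above, and the list median was -0.43. Calls of 2 of the 7, Bcl6 and Txnip, held in each fit without 1 WT library. Txnip, which restrains glucose uptake, fell from 562 and 368 to 108 and 153 FPKM (log2 change -1.81, SE 0.24, adjusted p = 0.0115). Tcf7, the factor TCF-1 of naive and memory T cells, fell from 244 and 216 to 87.7 and 71.0 FPKM (-1.53, adjusted p = 0.00913). S1pr1, the receptor that lets lymphocytes leave lymph nodes, fell from 179 and 119 to 51.2 and 62.8 FPKM (-1.35, adjusted p = 0.0178). The stimulated values of all 3 were under the lowest unstimulated value.

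Tsc22d3 (GILZ), a glucocorticoid-induced inhibitor, fell by 1.12 on the log2 scale (adjusted p = 0.00918), Rasa3, which switches off Ras and Rap1, by 0.86 (0.0479), and the cell cycle inhibitor Cdkn1b by 0.79 (0.0495). The seventh is Bcl6, given above. Values in the same direction that did not pass were those of Pik3ip1, an inhibitor of PI3 kinase (-1.66, adjusted p = 0.0702), the IL-7 receptor gene Il7r (-1.33, 0.103) and the lymph node homing receptor gene Ccr7, at 767 and 611 against 417 and 415 FPKM (-0.72, 0.0558). Without stimulated replicate 2 the calls of Tcf7, S1pr1, Tsc22d3, Rasa3 and Cdkn1b were lost (adjusted p between 0.0556 for Tsc22d3 and 0.0986 for Cdkn1b). Those of Rasa3 and Cdkn1b were also lost without each of the other 3 WT libraries (0.0598 to 0.132).

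Cell cycle genes were read in 3 lists. Of 20 G1 genes, Ccnd2 rose and 3 inhibitors fell (20.0% called): Cdkn1b, the CDK4 and CDK6 inhibitor Cdkn2d, from 37.6 and 30.3 to 12.8 and 8.87 FPKM (log2 fold change -1.57, adjusted p = 0.0104), and Ccng2, a cyclin of non-dividing cells, from 75.6 and 79.5 to 34.2 and 32.7 FPKM (-1.19, adjusted p = 0.00772). Cdk6 had a log2 fold change of 1.95 (adjusted p = 0.0634). Of 41 DNA replication genes 1 fell, the helicase subunit Mcm6 (-0.93, adjusted p = 0.0384), and 0 rose; of 32 mitosis genes 1 fell, the centromeric histone Cenpa (-1.54, adjusted p = 0.0434), and 0 rose. These shares, 2.44% and 3.12%, are near the 2.43% of all genes, and the list medians were -0.25 and -0.34. The call of Cdkn2d was lost without unstimulated replicate 1 (adjusted p = 0.0507), and those of Mcm6 and Cenpa without either unstimulated library or stimulated replicate 2 (0.0580 to 0.145).

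**Figure D3:**
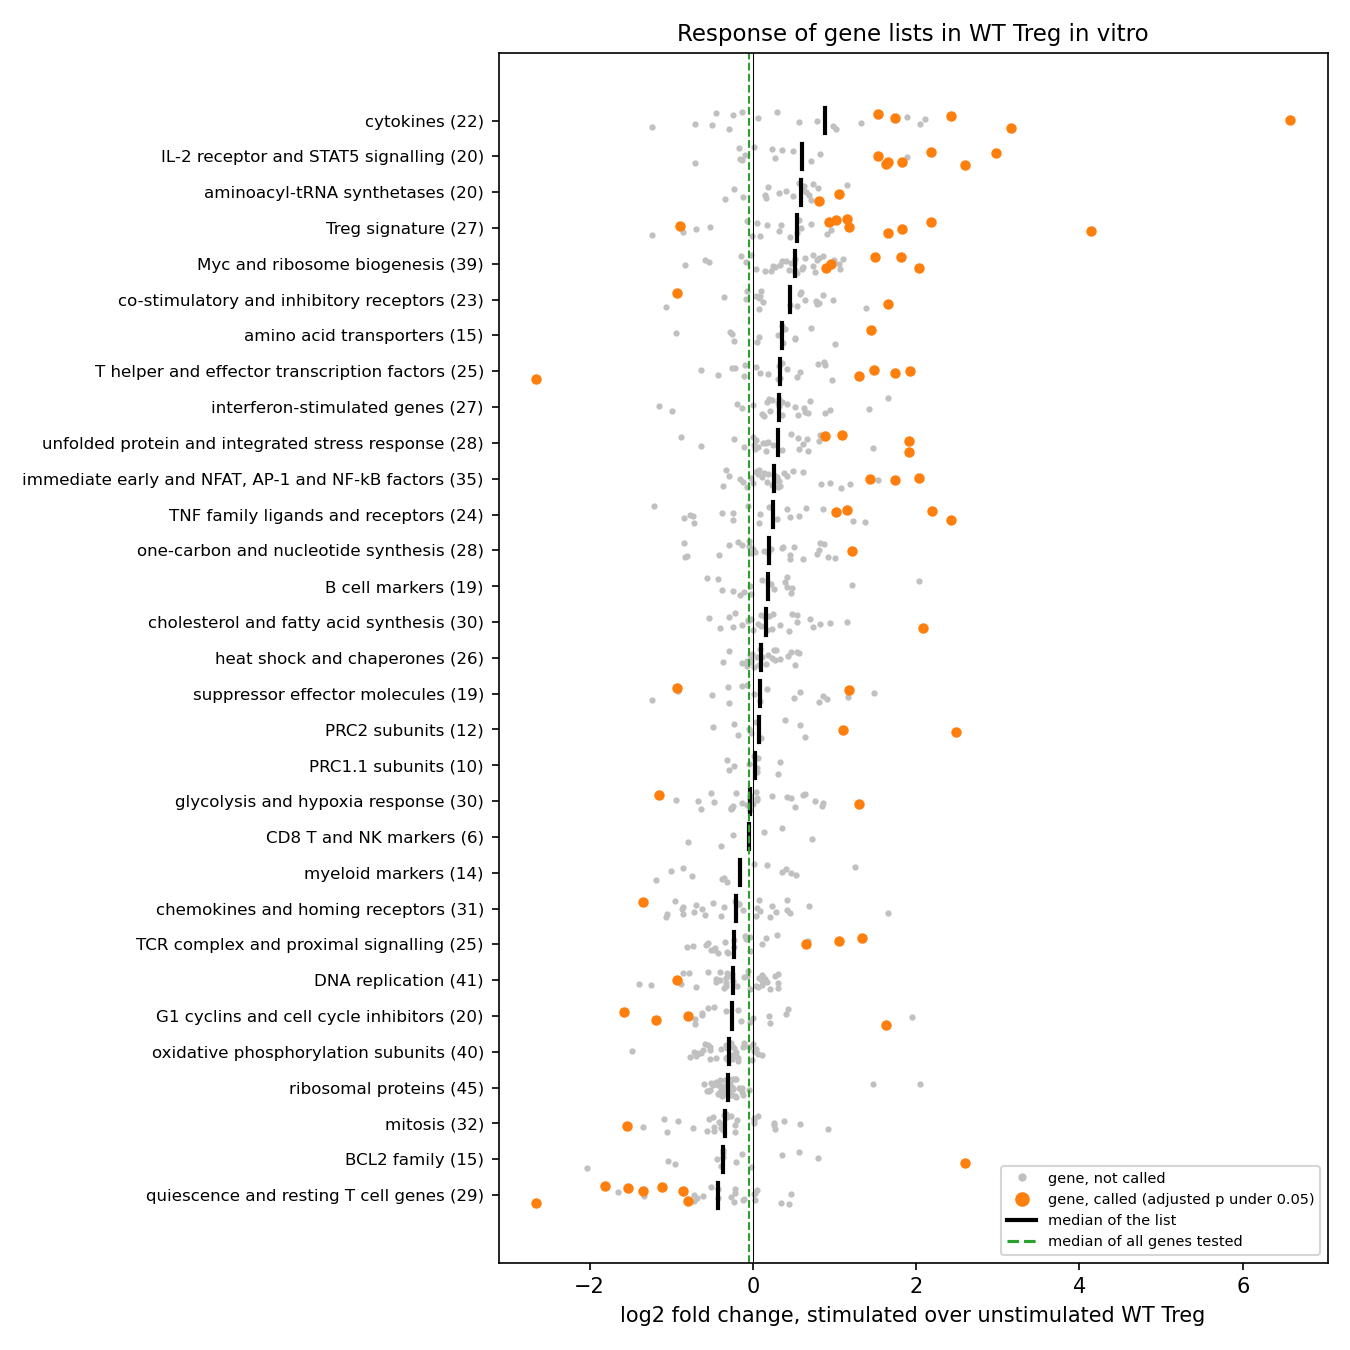
Log2 fold change of each tested gene (points) in 31 gene lists, stimulated over unstimulated WT Treg, with the number tested in parentheses and lists ordered by their median (black bar). Orange points were called, and the green dashed line is the median of all 10710 genes; cytokine and IL-2 pathway lists lie highest and the quiescence list lowest. The erythroid list, described in the text, is left out (log2 fold changes from -3.86 to 7.79).

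Biosynthesis genes were read in 5 lists. Of 39 Myc and ribosome biogenesis genes, 5 rose (12.8%), 0 fell and 33 had a log2 fold change above 0, with a median of 0.52. Beside Myc these were Srm, spermidine synthase, from 7.32 and 9.94 to 31.8 and 33.1 FPKM (1.81, adjusted p = 0.00654), the ribosome assembly factor Tsr1, from 10.9 and 8.13 to 23.8 and 34.0 FPKM (1.5, adjusted p = 0.0161), and the nucleolar genes Nop2 (0.96) and Mybbp1a (0.90). Rrp12, Nop16 and Wdr43 were higher in both stimulated libraries and did not pass (adjusted p between 0.0558 and 0.0624). Odc1, which makes putrescine ahead of Srm, lay the other way at 982 and 904 against 728 and 576 FPKM (-0.54, adjusted p = 0.132).

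Of the 20 aminoacyl-tRNA synthetases, which load amino acids onto tRNA, 2 rose, 0 fell and 17 were above 0, with a median of 0.59. Iars rose from 23.2 and 23.4 to 53.6 and 45.8 FPKM (1.06, adjusted p = 0.0149) and Aars from 52.0 and 49.0 to 97.5 and 81.9 FPKM (0.81, adjusted p = 0.0290). Of 15 amino acid transporters 1 rose, Slc7a1, which carries arginine and lysine, from 18.6 and 25.8 to 62.6 and 60.4 FPKM (1.45, adjusted p = 0.00767). Slc7a5, the leucine transporter, had 0.71 (adjusted p = 0.0986).

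Of 28 genes of the unfolded protein and integrated stress responses, 4 rose (14.3%) and 0 fell. Aldh18a1, the first enzyme of proline synthesis, rose from 37.1 and 29.5 to 121 and 134 FPKM (log2 change 1.91, SE 0.17, adjusted p = 0.00228). Pdia4, which forms disulphide bonds in the endoplasmic reticulum, rose from 33.6 and 25.6 to 84.9 and 151 FPKM (1.91, adjusted p = 0.0164), and the stress response genes Trib3 and Sesn2 by 1.1 and 0.88 on the log2 scale. Of 28 one-carbon and nucleotide synthesis genes 1 rose, Mthfd1 (1.21, adjusted p = 0.0265). Ctps and Cad, which start the synthesis of CTP and of pyrimidines, had 0.92 and 1.00 and did not pass (adjusted p = 0.0524 and 0.0569).

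Few energy and lipid genes passed. Of 30 glycolysis and hypoxia genes, Hif1a rose and the lactate exporter Slc16a3 fell, from 46.7 and 29.7 to 17.8 and 14.7 FPKM (-1.15, adjusted p = 0.0441), and the list median was -0.03; that median turned to 0.00, 0.03 and 0.08 with median-of-ratios scaling, quantile normalization and a common sum. Of 30 cholesterol and fatty acid genes 1 rose, the fatty acid elongase Elovl6, from 1.96 and 1.97 to 11.4 and 11.8 FPKM (2.09, SE 0.21, adjusted p = 0.00447). Of 40 oxidative phosphorylation and 45 ribosomal protein genes 0 passed (6 and 5 at an unadjusted p under 0.05, against 2002 of all 10710 genes). In these lists 34 and 43 genes had a log2 fold change below 0, and the medians were -0.29 and -0.31. With quantile normalization the ribosomal protein median was -0.03, so its distance from 0 moved with the scaling.

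Among the biosynthesis and energy genes, leaving out stimulated replicate 2 ended the calls of Tsr1, Nop2, Mybbp1a, Aars, Pdia4, Trib3, Sesn2, Mthfd1 and Slc16a3 (adjusted p between 0.0561 for Pdia4 and 0.190 for Mybbp1a). Leaving out unstimulated replicate 1 ended those of Nop2, Mybbp1a, Iars, Aars, Pdia4, Trib3, Sesn2 and Slc16a3 (0.0507 for Iars and Pdia4 to 0.123 for Nop2), and unstimulated replicate 2 those of Tsr1, Nop2, Aars, Pdia4, Trib3, Sesn2 and Mthfd1 (0.0567 for Tsr1 to 0.0856 for Trib3).

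Among the largest rises outside the lists was Lama5 (chromosome 2, 180176373 to 180225904), a laminin chain of basement membranes, which went from 0.519 and 0.299 to 16.6 and 15.2 FPKM (log2 change 3.59, SE 0.26, adjusted p = 0.00114). It was close to absent in both unstimulated libraries and nearly equal in both stimulated ones. Lilrb4a, an inhibitory receptor, rose from 3.97 and 10.1 to 104 and 48.0 FPKM, and its near-identical neighbour Lilr4b from 1.75 and 5.29 to 77.9 and 25.2 FPKM; how reads divide between the copies is uncertain. Metrnl, a secreted factor, rose from 0.548 and 0 to 8.15 and 12.3 FPKM (3.15, adjusted p = 0.00632), Itih5, which binds hyaluronan, from 0.168 and 0.290 to 6.35 and 14.3 FPKM (3.11, adjusted p = 0.00655), and the protease inhibitor Serpina3g from 5.34 and 5.69 to 59.7 and 38.6 FPKM (2.91, adjusted p = 0.0102).

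Of the genes called under every alternative, 4 lay outside both the lists and the largest changes and were singled out after their values were seen. Adam19, a membrane protease, rose from 11.4 and 12.4 to 76.7 and 72.2 FPKM (log2 fold change 2.55, SE 0.17). Ecm1, a secreted matrix protein that T cells also make, rose from 41.4 and 31.2 to 179 and 158 FPKM (2.19), the nuclear import receptor Kpna1 from 28.6 and 34.8 to 173 and 210 FPKM (2.56), and the lipid flippase Atp11b from 51.6 and 66.1 to 201 and 224 FPKM (1.84). Replicates of each gene lay close together in both groups.

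The largest falls outside the lists were led by Fam101b (now Rflnb; chromosome 11, 76019194 to 76027782), a regulator of filamin and actin, from 74.3 and 35.4 to 3.33 and 1.84 FPKM (log2 change -3.90, SE 0.38, adjusted p = 0.00385). Its unstimulated values differed widely, and both were far above the stimulated ones. Arl5c, a small GTPase, fell from 67.7 and 59.0 to 14.3 and 10.9 FPKM (-2.25, adjusted p = 0.00228). The beta tubulins Tubb2a and Tubb2b fell from 250 and 104 to 32.8 and 33.1 FPKM and from 89.3 and 37.7 to 10.9 and 16.3 FPKM; they are near-identical in sequence and adjacent, so their reads may be shared. The sialyltransferases St8sia6 and St8sia1, which add sialic acid to glycans and gangliosides, fell by 1.98 and 1.82 on the log2 scale.

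H60b, a ligand of the activating receptor NKG2D, fell from 12.1 and 17.5 to 2.80 and 2.67 FPKM (-2.06, adjusted p = 0.00918), and the kinase Matk from 112 and 64.0 to 27.3 and 9.70 FPKM (-2.30, adjusted p = 0.0478). Regulators of G protein signalling, which shorten chemokine receptor signals, were singled out after their values were seen: Rgs2 fell from 229 and 193 to 68.6 and 52.8 FPKM (-1.79, adjusted p = 0.00322), Rgs10 from 237 and 176 to 77.4 and 75.5 FPKM (-1.41, adjusted p = 0.00767) and Rgs14 by 0.86 on the log2 scale (adjusted p = 0.0441). In each of them the stimulated values were the lower ones in both replicates. Without stimulated replicate 2 the calls of Tubb2a (adjusted p = 0.0839), Tubb2b (0.0830), Matk (0.148) and Rgs14 (0.170) were lost. Without unstimulated replicate 1 those of Lilr4b (0.0931), Serpina3g (0.0560), Tubb2b (0.0685), St8sia1 (0.0543), Matk (0.161) and Rgs14 (0.0646) were lost, without unstimulated replicate 2 those of Matk (0.0699) and Rgs14 (0.0968), and without stimulated replicate 1 that of Tubb2b (0.0570).

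One transcript locus among the rises makes a cluster of microRNAs, short RNAs that bind messenger RNAs through their seed, bases 2 to 8. Outside it the microRNA hairpins Mir7005 and Mir6974 were called higher, with log2 fold changes of 2.96 and 1.97 (adjusted p = 0.0109 and 0.0226 in limma). They lie 0 bases from the called genes Lama5 and Lta, so these rises may not be separate. Mir6974 was picked after its values were seen. The miR-17 to miR-92 cluster on chromosome 14 is transcribed as 1 primary RNA, is a known target of Myc and is known to support proliferation and survival of lymphocytes. Mature sequences of 6 hairpins are shown because they fall into families by seed, which is in capitals; sequences are RNA, 5′ to 3′, from RefSeq (GRCm38.p6).
mmu-miR-17-5p: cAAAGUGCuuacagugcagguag
mmu-miR-20a-5p: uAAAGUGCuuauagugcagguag
mmu-miR-18a-5p: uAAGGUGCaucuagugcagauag
mmu-miR-19a-3p: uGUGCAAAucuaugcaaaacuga
mmu-miR-19b-3p: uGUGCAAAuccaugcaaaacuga
mmu-miR-92a-3p: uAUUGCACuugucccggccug
miR-17 and miR-20a share 1 seed, miR-19a and miR-19b another, and the seeds of miR-18a and miR-92a differ from these and from each other. The libraries were made from polyadenylated RNA, so values over these hairpins reflect the primary transcript and not the mature microRNAs. Mir17hg, the host gene, rose from 7.10 and 8.10 to 35.2 and 24.8 FPKM (log2 change 1.83, SE 0.20, adjusted p = 0.00627). The hairpin loci Mir17, Mir19a and Mir19b-1, each under 100 bases long, were called too: Mir17 from 2.15 and 0 to 13.6 and 10.1 FPKM (adjusted p = 0.0253), Mir19a from 3.61 and 0 to 18.2 and 25 FPKM (0.0401) and Mir19b-1 from 1.03 and 5.61 to 23.3 and 26.7 FPKM (0.0495).

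Mir18, at 3.58 and 0 against 15.2 and 24.1 FPKM, and Mir20a, at 3.79 and 0 against 14.8 and 10.2 FPKM, missed the threshold (adjusted p = 0.0518 and 0.0766). These 6 loci were higher in both stimulated libraries. The last hairpin of the cluster, Mir92-1, stood at or under 0.0736 FPKM in all 4 WT libraries and was not tested. Its span (115044427 to 115044506) lies inside that of Mir17hg (115044390 to 115046728), so how reads divide between them is uncertain. The hairpins with a value of 0 had it in unstimulated replicate 2, a library with more genes at 0 than its partner, and without both replicate 2 libraries the log2 fold change of Mir19a was 2.06 in place of 3.38. Without stimulated replicate 2 the adjusted p was 0.0846 for Mir17, 0.175 for Mir19a and 0.187 for Mir19b-1, and the call of Mir19b-1 was also lost without unstimulated replicate 1 (0.120) or stimulated replicate 1 (0.0565).

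The cKO libraries gave a second reading of stimulation, with no library in common with the WT contrast. Both contrasts came from the same fit and shared its estimate of the spread, so calls in both are not independent. Across all tested genes the median log2 fold change in cKO was -0.139. Stimulation called 490 genes in cKO (4.58%), of which 223 (2.08%) were higher and 267 (2.49%) lower. Without 1 cKO library that count was 79 (unstimulated replicate 1), 12 (unstimulated replicate 2), 22 (stimulated replicate 1) or 20 (stimulated replicate 2). With a common sum it split into 261 higher and 134 lower, so which direction prevailed in cKO moved with the scaling. Of the 172 genes called higher in WT, 170 had a log2 fold change above 0 in cKO and 128 were called higher there, and of the 88 called lower, 88 were below 0 and 63 were called lower. Il22 had log2 fold changes of 6.58 in WT and 7.22 in cKO, Foxp3 of 1.66 and 1.70, Gpr83 of 4.14 and 4.05, Bcl2 of 2.60 and 2.32, and Bcl6 of -2.65 and -2.50. The test of the difference between the responses, the interaction of genotype and stimulation in limma, called 0 genes, with a smallest adjusted p of 0.999. In it 380 of the 10710 genes had an unadjusted p under 0.05. That share is below the 0.05 such a test would give with no difference in any gene.

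**Figure D4:**
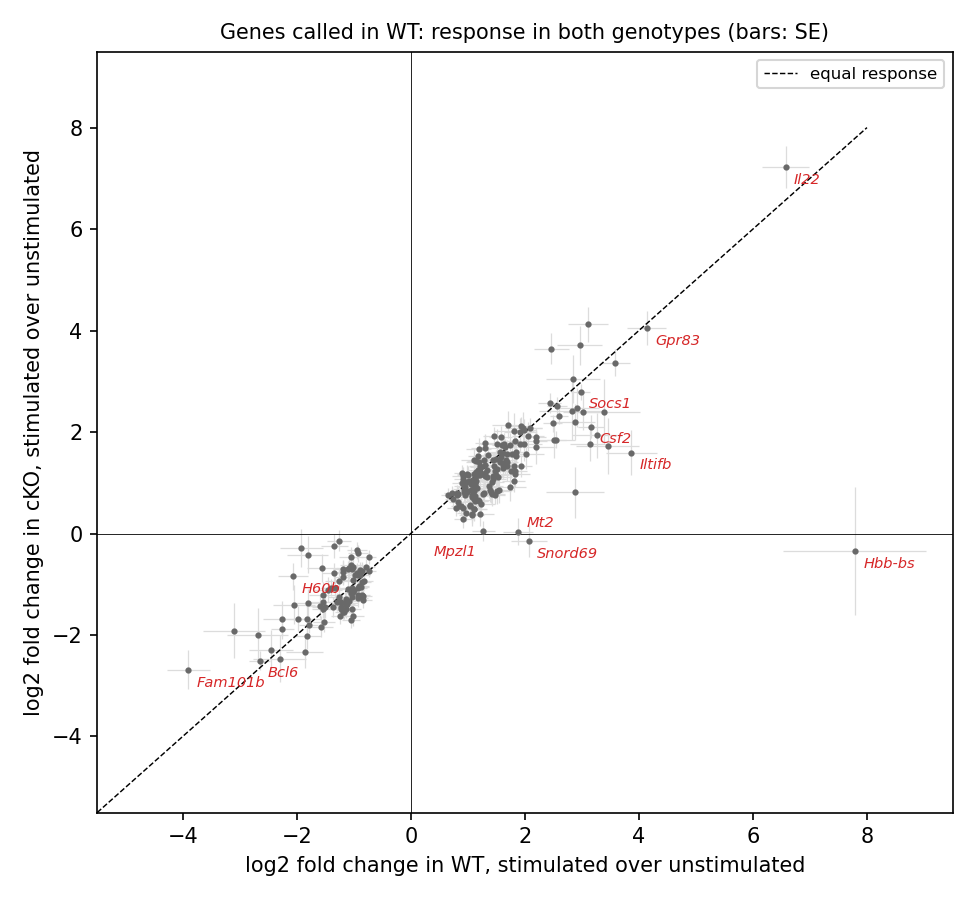
Log2 fold change, stimulated over unstimulated, in WT (x axis) and cKO (y axis) for the 260 genes called in WT, with SE bars; the dashed line marks an equal response. Of the points, 170 of 172 on the right lie above 0 and 88 of 88 on the left lie below 0 on the cKO axis. Hbb-bs lies farthest from the line, and Mt2, Mpzl1 and Snord69 lie near 0 on the cKO axis.

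Some genes whose values differed between the genotypes were singled out after they were seen. The metallothionein Mt2 rose in WT from 3.05 and 3.45 to 12.4 and 17.2 FPKM (log2 fold change 1.88, adjusted p = 0.0144) and had 0.04 in cKO. Mpzl1, a cell surface signalling protein, had 1.27 in WT and 0.05 in cKO, and Csf2 3.16 and 2.11. H60b had -2.06 and -0.84. Unadjusted interaction p-values were 0.0013 for Mt2, 0.0025 for Mpzl1, 0.011 for Csf2 and 0.011 for H60b, and all 4 had an adjusted p of 0.999, so none of these differences passed. The 2 genes called higher in WT with a value not above 0 in cKO were Hbb-bs, the globin described above, and the small nucleolar RNA Snord69, at 2.78 and 5.44 against 21.6 and 18.0 FPKM in WT and a log2 fold change of -0.15 in cKO; a small nucleolar RNA lies inside a host gene and is captured poorly by polyadenylated selection. In WT the calls of Mt2, Mpzl1 and Snord69 were lost without stimulated replicate 2 (adjusted p = 0.0750, 0.0782 and 0.0717) and those of Mt2 and Snord69 without unstimulated replicate 1 (0.0620 and 0.0646).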

How the data were processed

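RNA-seq values of cultured mouse Treg were taken as FPKM, the unit of the authors' deposited table; reads were processed with HISAT2 2.2.1 and StringTie 2.1.1, per the submitters' processing notes, which name the mouse build mm10 beside a human one without saying how each was used. No counts were used here and the depth is unknown, so no count model was run; 4 further columns of per-sample values in that table, whose names match no sample used here, and the in vivo libraries were not used. From the FPKM, log2(FPKM + 1) was fitted by limma 3.58.1 under R 4.3.3 (two-sided moderated test, variance trend on the mean level) to the 8 libraries in 4 groups of 2, for all genes averaging 1 FPKM or more across them. Calls used an adjusted p under 0.05 (Benjamini-Hochberg over the 10710 genes). The pseudocount understates changes of low genes. The procedure was run on simulated data with changes planted in genes above a minimum level. It called 53.7% of 2-fold, 98.5% of 4-fold and 97% of 8-fold changes, and 4.05% of its calls were false. The simulation gave all groups the same spread for a gene, which these libraries need not have. Fits of the 4 libraries of 1 genotype alone called 18 genes in WT and 1892 in cKO. Whether the simulated rates hold for the WT contrast was not tested. The gene set, lists and tests were chosen with earlier results of these data known. Named genes were Foxp3, Kdm2b, part of the 15 largest rises and falls with a group mean of at least 5 FPKM, and called or abundant members of each list, plus those said to be picked after their values were seen. Alternatives changed the pseudocount, floor, scaling, variance model, samples fitted and replicate block. Of the called list members, 1 is not reported here.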

Additional observations from a re-analysis of the deposited data

How the results depend on the processing

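The WT count of 260 calls stayed within 1.5 times under another pseudocount, a floor of 5 FPKM, median-of-ratios, quantile and common-sum scaling, a robust variance and a fold threshold (210 to 326 calls). It was 92 without a filter on low values, 157 without the trend and 18 with the 4 WT samples alone, and it ranged from 94 to 966 when 1 library was left out. The 58 called members of the gene lists became 28 without the filter and 10 with the 4 samples alone, and ranged from 31 to 107 when 1 library was left out. The 490 cKO calls became 185 without the filter, 207 without the trend, 1892 with the 4 cKO samples alone, 310 with the fold threshold and 1921 without both WT libraries numbered 2, and ranged from 12 to 645 when 1 library was left out. The interaction ranged from 0 to 3 calls when 1 library was left out and had 5 without both WT libraries numbered 2. Where leaving out a library left a group with 1 sample, that sample was assumed to vary like the other groups. Fits with fewer samples or more genes tested differ by construction in their degrees of freedom and adjustment. The fits of the 4 WT and of the 4 cKO samples alone were equal in size and called 18 and 1892 genes. The cause of this gap and of the other shifts was not tested.

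The unstimulated and stimulated libraries share replicate numbers, but no label ties a number to an animal or day, so pairing is not established. Deviations from the group mean correlated across 10710 genes at 0.239 in WT and 0.42 in cKO between libraries of the same number; with 2 pairs this cannot show a pairing. With the replicate number as a block (replicate block), 468 genes were called in WT (265 higher, 203 lower), 97 list members, 839 genes in cKO and 0 in the interaction.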

Other observations

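Some effector cytokine and chemokine genes had values in 1 stimulated WT library and were listed at 0 in the other. Il17a, an inflammatory cytokine of Th17 cells, stood at 0.0717 and 0 FPKM in the unstimulated and at 5.78 and 0 FPKM in the stimulated libraries. Il17f was at 0.445 and 1.35 against 6.38 and 0 FPKM, Il2 at 0.231 and 0 against 2.66 and 0 FPKM, and Xcl1, a chemokine for dendritic cells, at 2.86 and 2.65 against 14.7 and 0 FPKM. In all 4 the value was in stimulated replicate 1, and replicate 2 had 13273 genes at 0 against 9719. These genes were singled out after their values were seen.

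Interferon-stimulated genes had 0 calls among 27 tested in limma, with 23 log2 fold changes above 0 and a median of 0.32. At an unadjusted p under 0.05 there were 10 of these 27, against 2002 of all 10710 genes tested.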
